A study of Homo sapiens with 18 samples.

Results

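The comparison described here asks which genes responded to hepatocyte growth factor (HGF) in the same way in 3 head and neck squamous cell carcinoma (HNSCC) cell lines. All 9 HGF libraries were set against all 9 controls in 1 model, in which each line and replicate number formed a pair of libraries and 1 HGF effect was shared by the 9 pairs. Of 15475 genes tested among 19901 in the table, 596 were called in this model and also moved the same way in each of the 9 pairs, 178 of them upwards and 418 downwards. These 596 genes are the subject of what follows, and they are called shared genes below. To be called, a gene needed an adjusted p under 0.1 together with a log2 change of 0.4 or more in size, numerically the thresholds used by the study.

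FaDu came from a primary tumor of the hypopharynx, Detroit 562 from a pleural effusion of a pharyngeal tumor and SCC-9 from a primary tumor of the tongue. Cells were left untreated or received 50 ng/mL HGF, with 3 libraries of each kind per line, and the experiment was repeated, with libraries numbered 1 to 3 in each group. The sample records and the methods give 16 h of treatment, whereas the record of the series gives 48 h. MEM-α was the medium of Detroit 562 and FaDu, whereas SCC-9 grew in DMEM F12 with HEPES and hydrocortisone, so the line and its medium cannot be told apart in SCC-9. Each line stands for 1 tumor, and the 9 pairs are 3 repeats of 3 lines and not 9 tumors.

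HGF is secreted mainly by stromal cells, and it binds the receptor tyrosine kinase MET on epithelial cells. Active MET signals through RAS, RAF, MEK and ERK, through PI3K and AKT and through STAT3, and ERK raises the transcription of its own inhibitors, the dual-specificity phosphatases and the Sprouty proteins. In squamous carcinoma this receptor is known for cell scattering, migration and invasion.

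Reads per gene, as counted by the authors, were scaled here to a common library size by the TMM method, and these normalized counts compare libraries and not genes. Total counts ranged from 35304770 to 44003970 per library, from 37431702 to 42879349 in controls and from 35304770 to 44003970 with HGF. All 12 epithelial markers were detected, with summed levels of 8875 to 19322 CPM, which is counts scaled to a fixed library total, in controls and 5869.9 to 16423 with HGF. Of 10 leukocyte markers 8, PTPRC among them, averaged under 1 CPM in every group, while CD68 averaged 23.8 to 57.6 CPM and CD14 reached 8.89 CPM. Of 8 endothelial markers 5 averaged under 1 CPM in every group, PECAM1 among them, and VWF, CDH5 and ERG reached 3.19, 2.49 and 2.52 CPM in FaDu. Of 10 fibroblast markers 5 averaged under 1 CPM in every group, and COL1A1 is described with the epithelial genes. COL1A2 averaged 23.9 CPM in the Detroit 562 controls, and FAP, ACTA2 and DCN averaged 42.6, 11.5 and 1.64 CPM in the SCC-9 controls. MET itself, the receptor, did not pass the test, with a shared log2 difference of 0.08 ± 0.04 and an adjusted p of 0.157 in edgeR's quasi-likelihood test. MET had 31045, 30833 and 33553 normalized counts in the Detroit 562 controls and 31501, 34190.2 and 40482 with HGF, 5794, 5571 and 6459 against 6154, 6227 and 7885 in FaDu, and 12407, 11296 and 11088 against 12063, 10519.6 and 10549 in SCC-9. Of 17 genes of the HGF and MET system tested, 1 was called up and 1 down, with 2 higher and 2 lower in all pairs (11.8% each way, near the 7.7% and 8.42% of all genes). The level of MET was higher in the 6 pairs of Detroit 562 and FaDu and lower in the 3 of SCC-9. In bulk samples fewer cells of a type and less RNA per cell cannot be told apart.

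Across all genes the shared effect was called up in 356 genes, which is 2.3% of those tested, and down in 1088, which is 7.03%. Without the fold minimum 3120 genes (20.2%) were higher and 3501 (22.6%) were lower at an adjusted p below 0.1. Counting directions alone, 1192 genes (7.7%) were higher with HGF in 9 of 9 pairs and 1303 (8.42%) were lower. Both conditions held for 178 genes upwards (1.15%) and 418 downwards (2.7%). The direction in the pairs and the adjusted p come from the same libraries, so neither is independent support for the other. Of the genes called, 178 upward and 670 downward calls moved the other way in at least 1 pair or tied there, and in 22 of them at least as many pairs moved the other way or tied. Conversely, 1014 genes higher and 885 lower in all pairs were not called, and 1877 of these had an adjusted p below 0.1 with a change below the fold minimum.

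A readout independent of the choice of genes came from leaving out a line. Genes were called in the 12 libraries of 2 lines and then looked up in the third line, fitted alone. Of 148 genes called up in FaDu and SCC-9 and tested in Detroit 562, 114 or 77.0% were higher in 3 of 3 Detroit 562 pairs, where 33.2% of all genes were. Of 375 called down, 345 or 92% were lower in 3 of 3 Detroit 562 pairs, against 33.2% of all genes. In FaDu the shares were 229 of 321 upwards (71.3%, all genes 22%) and 599 of 925 downwards (64.8%, all genes 22.8%). In SCC-9 they were 328 of 501 upwards (65.5%, all genes 25.7%) and 649 of 1092 downwards (59.4%, all genes 25.2%). The opposite direction in 3 of 3 pairs was rarest in Detroit 562 among genes called down, with 4 genes, and most frequent in SCC-9, with 39 of the genes called up and 58 of those called down.

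In Detroit 562 alone 106 of the 148 genes (71.6%) and 318 of the 375 (84.8%) were themselves called, beside 7.46% of all genes called up and 14.3% called down. In FaDu alone 134 genes (41.7%) and 303 genes (32.8%) were called, beside 2.1% and 3.31% of all genes. In SCC-9 alone 65 genes (13.0%) and 178 genes (16.3%) were called, beside 0.841% and 1.93%. The median log2 change of the looked-up genes was 0.82 upwards and -0.99 downwards in Detroit 562. It was 0.37 and -0.35 when FaDu was the line left out and 0.17 and -0.20 when SCC-9 was. In the 12 libraries that gave the calls the same genes had medians of 0.54 and -0.55 for Detroit 562, 0.56 and -0.61 for FaDu, and 0.58 and -0.62 for SCC-9, so the looked-up changes were larger in Detroit 562 and smaller in the other lines. No test was made on these shares, since genes are not independent of each other.

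**Figure D1:**
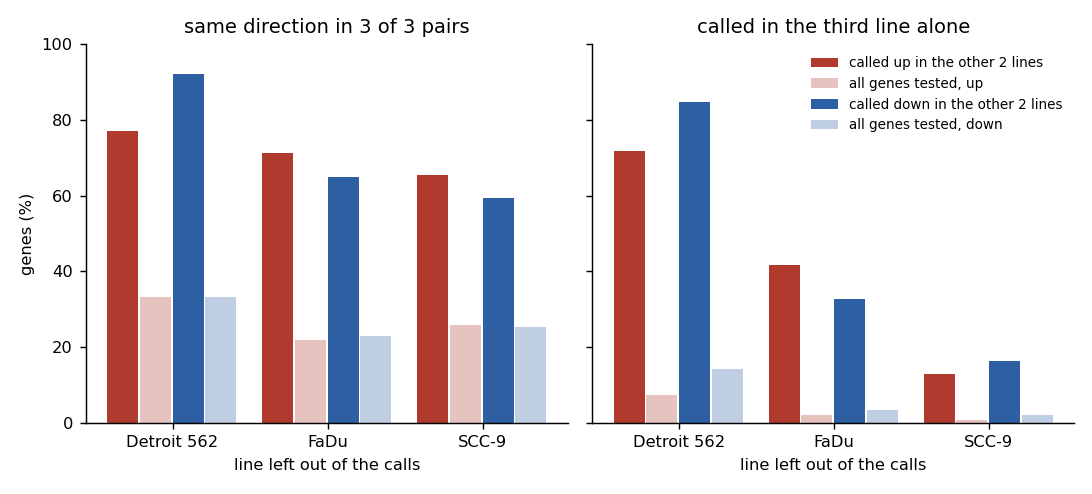
Percent of genes (y axis, from 0 to 100) that moved the same way in 3 of 3 pairs of a line (left) or were called in that line alone (right), for genes called in the other 2 lines (solid bars) and for all genes tested (pale bars), by the line left out. Every solid bar is higher than its pale neighbour, and the solid bars for calls fall from 71.6% and 84.8% in Detroit 562 to 13.0% and 16.3% in SCC-9.

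Among the shared genes themselves the order of the lines was the same in both directions. The 178 genes that rose had a median log2 change of 0.90 in Detroit 562, 0.61 in FaDu, 0.31 in SCC-9 and a median shared effect of 0.57. The 418 that fell had medians of -0.88, -0.53 and -0.38, and a shared median of -0.60. Detroit 562 held the largest change in 135 of 178 and 349 of 418 genes. By pair, the median of the rising genes ran from 0.83 to 1.06 in Detroit 562, from 0.37 to 0.72 in FaDu and from 0.23 to 0.40 in SCC-9. The FaDu pair of replicate 2 gave the 0.37, and its median for the falling genes was -0.35 where the other FaDu pairs had -0.64 and -0.52. A test that the 3 HGF effects were equal was failed at an adjusted p below 0.1 by 3987 genes (25.8%) in all, by 743 of the 1444 genes called, and by 131 of the 178 and 262 of the 418 shared genes. For the remaining 47 and 156 the test found no difference at that threshold, which does not show that their effects were equal. The effect was called in each of the 3 lines for 34 genes upwards (0.22% of those tested) and 80 downwards (0.517%), of which 32 and 78 are shared genes. Genes that overlap on 1 strand are counted separately in such numbers. UGT1A1 and UGT1A3 to UGT1A10, entries of 1 locus, are all among the 78. So are CFB and XXbac-BPG116M5.17, whose extents overlap.

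**Figure D2:**
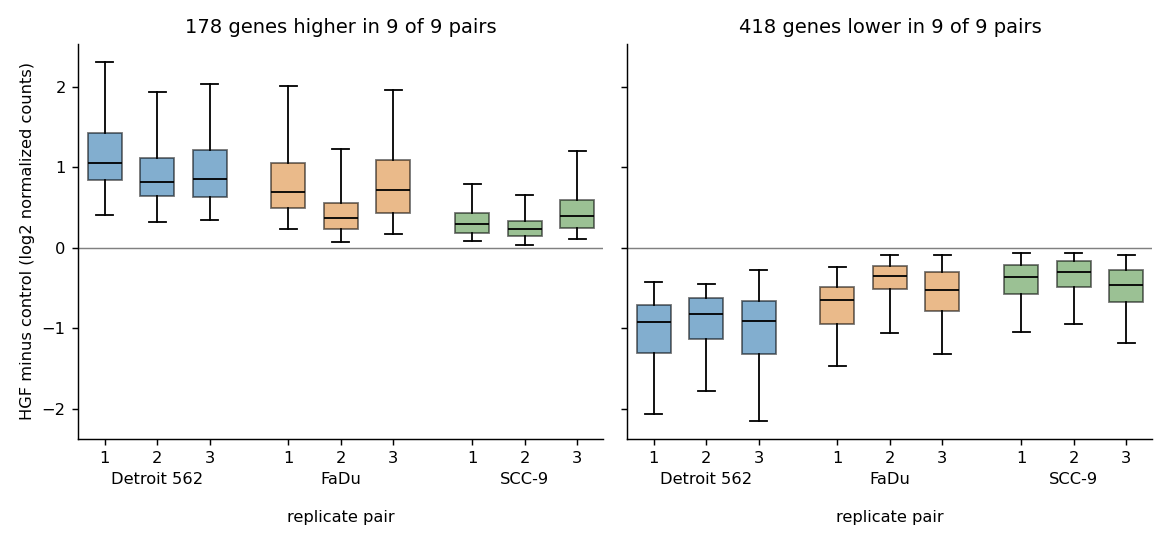
Log2 change of normalized counts, HGF minus control, in each of the 9 same-numbered pairs for the 178 genes that rose (left) and the 418 that fell (right). Boxes span the quartiles with the median as a line and whiskers reach the 5th and 95th percentiles. Detroit 562 has the largest medians in both panels, the FaDu pair of replicate 2 lies in the range of SCC-9, and the direction in each pair is fixed by how the genes were chosen.

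In what follows a value with ± is the shared log2 change, HGF minus control, with its standard error from the model over the 9 pairs, and a log2 value without ± after a gene is the same change. Such changes compare conditions within a gene. Counts of list members below are to be read beside the shares of all genes tested, 2.3% called up and 7.03% called down. In 9 of 9 pairs 7.7% of all genes were higher and 8.42% lower. Many ERK targets and feedback inhibitors rose. Of 30 ERK targets and feedback inhibitors tested, 15 were called up and 0 down, and 17 were higher in 9 of 9 pairs, 12 of them called. The median log2 change of the list was 0.41, beside -0.01 over all genes tested. The list names these genes for their known place in the pathway, and it was chosen with earlier results of these data known. With Detroit 562 left out of the model 11 were called up, with FaDu left out 14 were called up and 2 down, and with SCC-9 left out 15 were called up.

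SPRY4, a Sprouty inhibitor of receptor tyrosine kinase signaling to ERK (ENSG00000187678.9, chr5:142310427-142326455, minus strand in GRCh38), had the largest shared change of this list. SPRY4 had 67.1, 122 and 180.3 normalized counts in the Detroit 562 controls and 357, 318 and 744 with HGF, 28.6, 34.2 and 53.6 against 117, 80.7 and 210.5 in FaDu, and 515, 479 and 254 against 893, 747 and 614 in SCC-9. In SPRY4 every HGF library lay above every control of its line. The shared log2 change was 1.44 ± 0.17 with an adjusted p of 0.000193, and it was 1.94 (Detroit 562), 1.80 (FaDu) and 0.88 (SCC-9). DUSP6, the cytoplasmic phosphatase that inactivates ERK, rose by 1.07 ± 0.15 on the log2 scale (ENSG00000139318.7, chr12:89347232-89353271, minus strand). DUSP6 had 240, 218 and 227 normalized counts in the Detroit 562 controls and 709, 526 and 743 with HGF, 306, 366 and 444 against 909, 744 and 1380.1 in FaDu, and 2394, 2301 and 2042 against 3228, 2989.5 and 3137 in SCC-9. For DUSP6 every HGF library lay above every control of its line, and the SCC-9 controls already lay above all HGF-treated Detroit 562 and FaDu libraries. DUSP4, a nuclear phosphatase of the same family, rose by 0.96 ± 0.10, and DUSP7 by 0.51 ± 0.10.

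PHLDA1 rose by 1.19 ± 0.17 and PHLDA2 by 0.57 ± 0.09. The ETS factors ETV5, ETV4 and ETV1, which are transcribed in response to ERK, rose by 0.85 ± 0.12, 0.71 ± 0.10 and 0.69 ± 0.12. ETV1 changed by 0.69 (Detroit 562), 0.62 (FaDu) and 0.73 (SCC-9). The test for a difference among lines gave adjusted p values for these factors of 0.195, 0.455 and 0.944. IER3, an immediate early gene with a role in cell survival, rose by 0.58 ± 0.11, with 0.49 (Detroit 562), 1.11 (FaDu) and 0.24 (SCC-9). The immediate early genes EGR1 and EGR3 did not pass the call, at -0.26 and -0.29, and MYC was at 0.17 with 6 of 9 pairs higher.

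NAV3, a microtubule-binding protein of the neuron navigator family (ENSG00000067798.15, chr12:77324641-78213008, plus strand), was among the 12 largest rises and also among the 5 genes whose rise was most even over the 9 pairs. NAV3 had 344, 401 and 775 normalized counts in the Detroit 562 controls and 1029, 1069.9 and 2296 with HGF, 125, 215 and 279 against 337, 304 and 889 in FaDu, and 285, 209.6 and 178 against 509.8, 353 and 420.3 in SCC-9. With NAV3, every HGF library lay above every control of its line. Its shared change was 1.25 ± 0.12 with an adjusted p of 6.93e-05. Even genes were picked for a small spread over the 9 pairs, so the lack of a difference among lines is not read for them. SLC4A7 differed among lines all the same (adjusted p = 0.0696 in edgeR's quasi-likelihood test). The other even rises were NR1D1, a nuclear receptor of the circadian clock, at 0.53 ± 0.05, the sodium bicarbonate cotransporter SLC4A7 at 0.41 ± 0.04, the cationic amino acid transporter SLC7A2 at 0.54 ± 0.07, and PDCD1LG2 at 0.78 ± 0.09. NR1D1 changed by 0.65 (Detroit 562), 0.54 (FaDu) and 0.41 (SCC-9).

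PDCD1LG2 encodes PD-L2 and its neighbour CD274 encodes PD-L1, both ligands of the T cell inhibitory receptor PD-1. PDCD1LG2 had 56.7, 43.6 and 65.9 normalized counts in the Detroit 562 controls and 84.3, 79.7 and 150.1 with HGF, 24.8, 32.2 and 48.9 against 41.8, 39.3 and 106 in FaDu, and 289.6, 217 and 217 against 438, 355 and 395 in SCC-9. PDCD1LG2 pairs all pointed upwards, and HGF libraries lay above all controls in Detroit 562 and SCC-9 and overlapped them in FaDu. Its changes were 0.89 (Detroit 562), 0.80 (FaDu) and 0.72 (SCC-9), an evenness for which it was picked. CD274, named here after its values were seen, rose by 0.74 ± 0.14 with an adjusted p of 0.00253. CD274 had 419, 408 and 803 normalized counts in the Detroit 562 controls and 899, 837 and 2517 with HGF, 278, 381 and 435 against 346, 404 and 752 in FaDu, and 382, 308 and 282 against 588, 334 and 468 in SCC-9. Its change was larger in Detroit 562, at 1.29, than in FaDu and SCC-9, at 0.42 and 0.50 (adjusted p for a difference among lines = 0.0114).

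**Figure D3:**
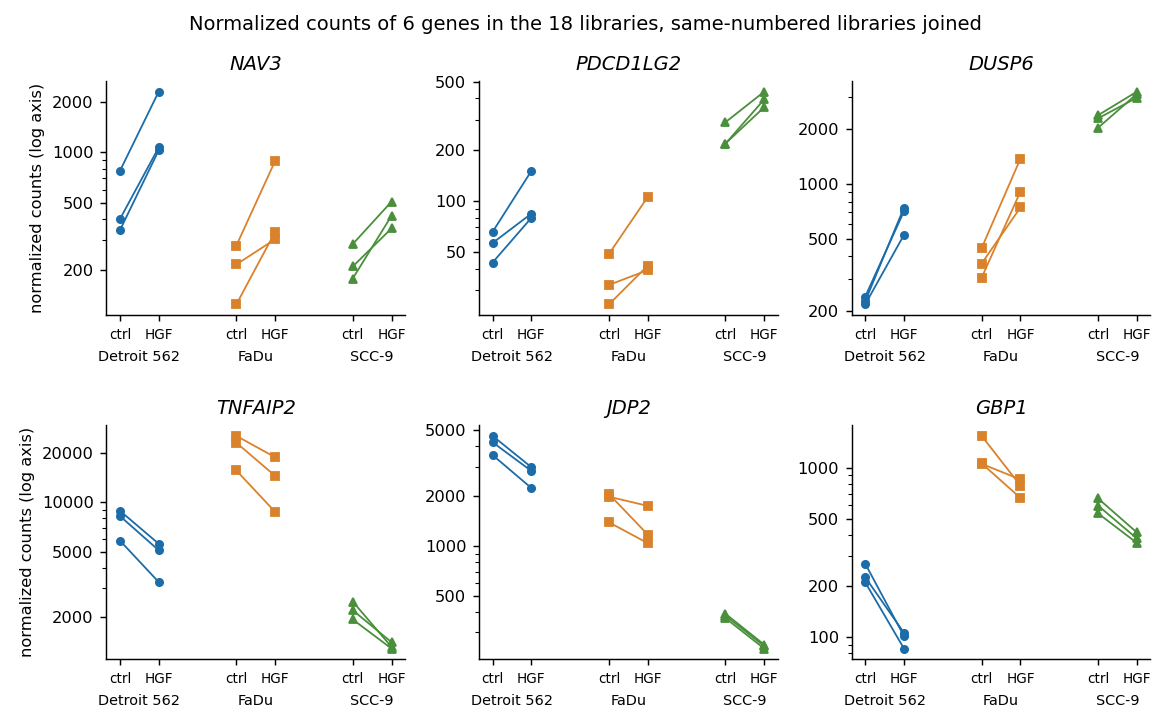
Normalized counts on log axes of 3 genes that rose (NAV3, PDCD1LG2, DUSP6) and 3 that fell (TNFAIP2, JDP2, GBP1), with each control joined to the HGF library of the same replicate number. All 54 lines in the 6 panels run in the direction of the shared effect, which is fixed by how the genes were chosen, and the baselines differ between the lines.

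IL18R1, the ligand-binding chain of the interleukin 18 receptor, had the largest rise of the shared genes with at least 20 normalized counts in every line, at 1.52 ± 0.22. IL18R1 had 1177, 1516 and 4315 normalized counts in the Detroit 562 controls and 5536, 5809 and 14473 with HGF, 138, 205 and 346 against 764, 503 and 998 in FaDu, and 152, 129 and 123 against 165, 129 and 186 in SCC-9. Detroit 562 and FaDu changed by 1.96 and 1.73, whereas SCC-9 changed by 0.24 and its replicate 2 pair held the same count after rounding. The extent of IL18R1 overlaps other genes on its strand, and reads there were counted for each of them. The decoy interleukin 1 receptor IL1R2 rose by 1.12 ± 0.20, the membrane semaphorin SEMA7A by 1.11 ± 0.20, the anthrax toxin receptor ANTXR2 by 1.25 ± 0.16, the ectonucleotidase NT5E (CD73) by 0.96 ± 0.15 and SH2D5 by 1.18 ± 0.20. ANGPTL4, a secreted inhibitor of lipoprotein lipase, rose by 0.99 ± 0.13 with no difference among lines by the test (adjusted p = 0.441). The prostaglandin synthase PTGS2, the sphingosine kinase SPHK1 and the chromatin protein HMGA2 were chosen after their values were seen, and rose by 0.94 ± 0.11, 0.96 ± 0.14 and 0.85 ± 0.09.

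**Figure D4:**
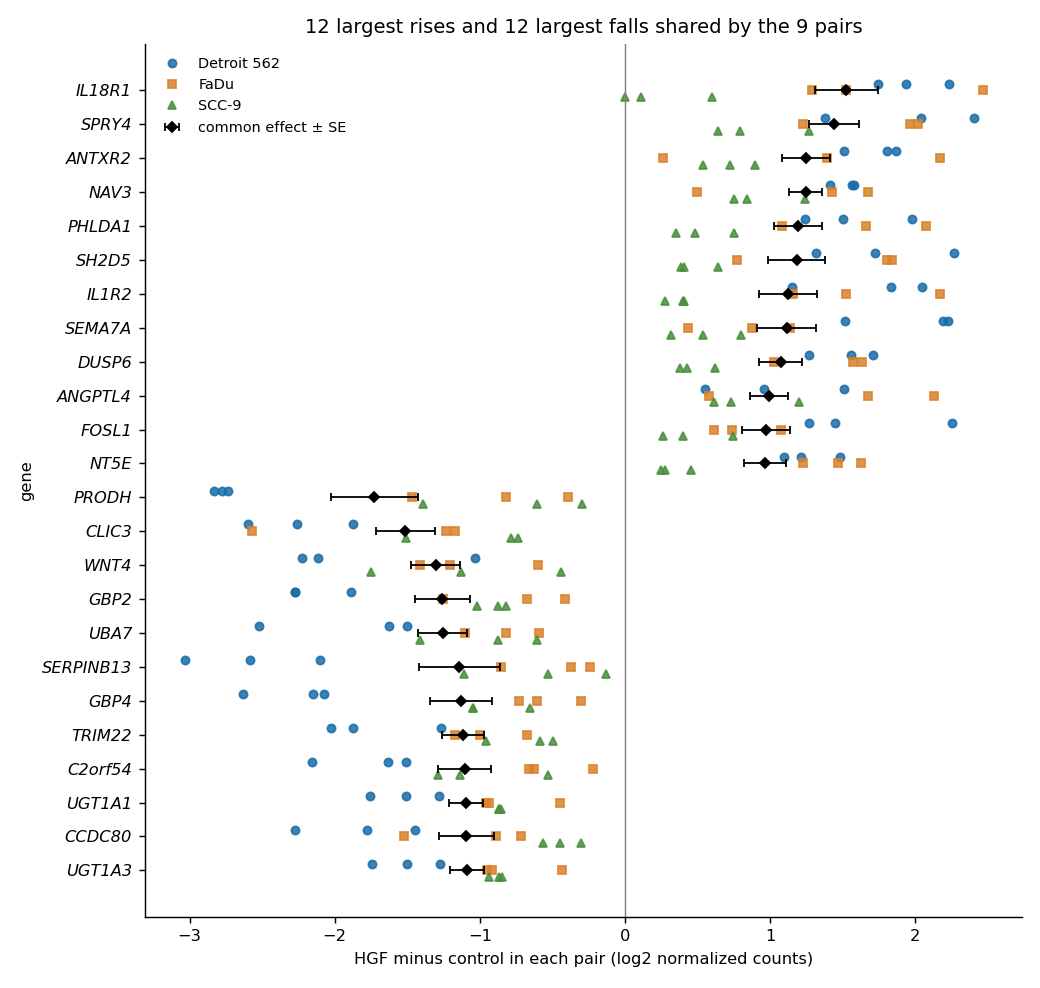
Log2 change, HGF minus control, in each of 9 pairs (colored symbols by line) and the shared effect with its standard error (black) for the 12 most increased and the 12 most decreased of the shared genes with at least 20 normalized counts in every line. Detroit 562 points (circles) lie farthest from 0 in most of the falling genes, and an SCC-9 point (triangles) of IL18R1 lies at 0.

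EGF receptor ligands changed in both directions. Of 10 tested, 5 were called up, 3 were called down, and 4 were higher in 9 of 9 pairs, with a list median of 0.39. TGFA, HBEGF and AREG were shared genes, at 0.65 ± 0.08, 0.79 ± 0.15 and 0.61 ± 0.07. TGFA had 1250.3, 1379 and 2134 normalized counts in the Detroit 562 controls and 2499, 2312 and 4726 with HGF, 959.6, 971 and 1233 against 1439, 1275 and 1939.7 in FaDu, and 6492, 5559.6 and 5365 against 9013, 6962 and 7899 in SCC-9. For TGFA every HGF library lay above every control of its line. EREG and NRG1 were called with 8 of 9 pairs higher, at 0.42 and 0.41. EGF itself, NRG4 and BTC were called down, at -0.75, -0.66 and -0.45, each with 1 or 2 pairs in the other direction.

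Some genes of cell adhesion to the matrix rose. Of 13 integrins 4 were called up and 0 down, and 6 were higher in all pairs, with a list median of 0.25. ITGA2 and ITGA6, the chains that pair with ITGB1 or ITGB4 to bind collagen and laminin, rose by 0.57 ± 0.08 and 0.49 ± 0.06, and ITGA5, the fibronectin receptor chain, by 0.52 ± 0.11. ITGA5 changed by 1.07 (Detroit 562), 0.38 (FaDu) and 0.15 (SCC-9), and without Detroit 562 it fell below the fold minimum, at 0.25. ITGB5 was called at 0.51 ± 0.12 but is not a shared gene, since the 3 SCC-9 pairs were slightly lower, and its changes were 0.72 (Detroit 562), 0.89 (FaDu) and -0.02 (SCC-9). Without Detroit 562 1 integrin was called, and without SCC-9 6 were called. Of 16 laminin and matrix genes 3 were called up, 2 down and 6 were higher in all pairs, with a median of 0.19.

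LAMA3, a laminin chain of the epithelial basement membrane, rose by 0.50 ± 0.06. LAMA3 had 10555, 10478 and 15219 normalized counts in the Detroit 562 controls and 15059, 14442 and 25616 with HGF, 1462, 2175 and 1903 against 2169.7, 2769 and 3543 in FaDu, and 60623, 53299.8 and 47437 against 78508, 61456 and 64044 in SCC-9. For LAMA3 HGF libraries lay above all controls in SCC-9 and overlapped them in Detroit 562 and FaDu. The laminin chain LAMB3 did not pass the call, at 0.16 ± 0.06 with 7 of 9 pairs higher. The matrix glycoprotein TNC rose by 0.48 ± 0.10, with 0.92 (Detroit 562), 0.49 (FaDu) and 0.12 (SCC-9) and 0.23 without Detroit 562. LAMB2 fell, at -0.46 ± 0.08. CD44, a hyaluronan receptor and known partner of MET, rose by 0.60 ± 0.11, with 0.71 (Detroit 562), 0.92 (FaDu) and 0.17 (SCC-9).

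In pericellular proteolysis 10 of 21 genes were called up and 4 down, but 4 were higher and 3 lower in all pairs. PLAUR, the urokinase receptor, rose by 0.68 ± 0.12, the sheddases ADAM8 and ADAM19 by 0.83 ± 0.10 and 0.72 ± 0.13, and the inhibitor TIMP1 by 0.46 ± 0.06. MMP7 and the inhibitor TIMP2 fell, at -0.55 ± 0.08 and -0.44 ± 0.07. MMP7 was not called without the replicate block (edgeR adjusted p = 0.142). MMP1 was called up, at 1.76, with 3 of 9 pairs lower, and so is not a shared gene. In the hypoxia and angiogenesis list 5 of 19 were called up and 0 down, among them BNIP3 at 0.48 ± 0.12, with 1.08 (Detroit 562), 0.27 (FaDu) and 0.17 (SCC-9) and 0.22 without Detroit 562. ESM1, a secreted proteoglycan of that list, rose in 9 of 9 pairs, at 3.29 ± 0.35, but averaged 10.3 normalized counts in FaDu, below the minimum set for naming.

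AP-1 transcription factors changed in both directions. Of 14 tested 3 were called up and 4 down. FOSL1, which encodes FRA1, rose by 0.98 ± 0.17 and MAFF, a small MAF protein, by 0.51 ± 0.09. FOSL1 had 4031, 5914 and 11652 normalized counts in the Detroit 562 controls and 19216, 16120.2 and 28069 with HGF, 4589, 4967 and 8228 against 9679, 7614 and 13689 in FaDu, and 4230.4, 3667 and 2736 against 5581, 4402 and 4575 in SCC-9. In FOSL1 HGF libraries lay above all controls in Detroit 562 and SCC-9 and overlapped them in FaDu. JDP2, a repressor that dimerizes with JUN, fell, and so did JUND, at -0.57 ± 0.05 and -0.42 ± 0.07. JDP2 had 4635, 4242 and 3548 normalized counts in the Detroit 562 controls and 2996, 2842 and 2242 with HGF, 2059, 1986 and 1390.1 against 1171, 1748 and 1039.7 in FaDu, and 366, 379 and 389 against 239.6, 248 and 253 in SCC-9. In JDP2 HGF libraries lay below all controls in Detroit 562 and SCC-9 and overlapped them in FaDu. The lines did not differ by the test (adjusted p = 0.566). FOS and FOSB were called down at -0.77 and -0.56 with 1 pair of 9 higher each.

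The AP-1 site was the motif whose share among promoters of the rising genes stood farthest above that of all genes tested. Promoters from 250 bases before to 50 after the RefSeq gene start (GRCh38.p14) were found for 124 of the 178 rising genes, 284 of the 418 falling genes and 11500 of the 15475 tested, some genes with several starts. TGANTCA, read on both strands with N for any base, was present for 24 of the 124 rising genes (19.4%), 33 of the 284 falling genes (11.6%) and 875 of all (7.61%). Counted by promoter the shares were 13.9%, 7.39% and 5.66%. Promoters of PLAUR (chr19:43670160-43670419, minus strand), ITGA5 (chr12:54419257-54419516, minus strand) and LAMA3 (chr18:23872770-23873029, plus strand, a start inside the gene's extent) are shown because they are adhesion and proteolysis genes that rose and hold such a match. They run 5′ to 3′ from 250 bases before to 10 after the start, with the matches in capitals.
PLAUR: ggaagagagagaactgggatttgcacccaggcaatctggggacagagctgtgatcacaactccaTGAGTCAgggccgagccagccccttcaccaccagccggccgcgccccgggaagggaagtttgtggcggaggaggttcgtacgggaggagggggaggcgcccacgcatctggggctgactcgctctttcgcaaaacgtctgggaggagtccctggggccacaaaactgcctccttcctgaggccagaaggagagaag
ITGA5: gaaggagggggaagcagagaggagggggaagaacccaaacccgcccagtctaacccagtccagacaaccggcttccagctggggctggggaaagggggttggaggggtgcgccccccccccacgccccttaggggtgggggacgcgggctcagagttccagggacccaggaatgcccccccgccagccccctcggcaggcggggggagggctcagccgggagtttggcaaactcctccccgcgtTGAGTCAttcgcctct
LAMA3: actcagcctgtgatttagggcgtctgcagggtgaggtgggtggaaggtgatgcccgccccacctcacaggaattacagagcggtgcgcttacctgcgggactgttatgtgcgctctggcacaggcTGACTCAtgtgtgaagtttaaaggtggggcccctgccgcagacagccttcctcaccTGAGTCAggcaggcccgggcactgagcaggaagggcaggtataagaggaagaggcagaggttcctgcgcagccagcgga
The match lies 186 to 180 bases before the start in PLAUR and ends on the first transcribed base in ITGA5, and LAMA3 holds a pair of matches, 125 to 119 and 69 to 63 bases before its start. A match describes the letters and not the binding of a factor.

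The other motifs gave smaller differences or lower shares. CCGGAAGT, an ETS site, was present for 1.61% of the rising and 1.06% of the falling genes, beside 8.71% of all. The CRE TGACGTCA was present for 4.03% and 0.704%, beside 3.46%, and the E-box CACGTG for 13.7% and 7.75%, beside 12.3%. For the serum response factor CArG box the shares were 1.61%, 2.11% and 1.6%, for the GAS motif TTCNNNGAA 10.5%, 9.51% and 8.7%, for the NF-kB box 20.2%, 22.9% and 17.4%, and for the antioxidant response element TGACNNNGC 22.6%, 19% and 18.9%. Both strands were read, and overlaps between motifs were not removed.

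Many interferon-inducible genes fell, and no gene of the lists below was called up. Of 6 guanylate-binding proteins, GTPases that interferon-gamma induces against intracellular pathogens, 4 were called down, 0 up, and 3 were lower in all pairs, with a list median of -0.68. Of 41 interferon-stimulated genes 16 were called down, 0 up and 14 were lower in all pairs, with a median of -0.32 and 29 at an adjusted p below 0.1. Of 18 genes of MHC class I presentation 3 were called down, 0 up and 9 were lower in all pairs, with a median of -0.25. At an adjusted p below 0.1, without the fold minimum, 13 of them were lower and 1 was higher. The median over all genes tested was -0.01. With Detroit 562 left out 7 interferon-stimulated genes and 4 guanylate-binding proteins were called down, and 21 and 4 did with FaDu left out.

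GBP2, GBP4 and GBP1 had shared changes of -1.26 ± 0.19, -1.13 ± 0.21 and -0.79 ± 0.10. GBP2 had 294, 267 and 179 normalized counts in the Detroit 562 controls and 60.5, 71.7 and 36.6 with HGF, 136, 164 and 62.1 against 56.7, 123 and 38.8 in FaDu, and 129, 184 and 268 against 70, 104 and 132 in SCC-9. In GBP2 HGF libraries lay below all controls in Detroit 562 and overlapped them in FaDu and SCC-9. GBP1 had 271, 225 and 211 normalized counts in the Detroit 562 controls and 101, 106 and 85.4 with HGF, 1541, 1053 and 1059.7 against 784, 852 and 662 in FaDu, and 537, 597 and 658 against 359, 382 and 414 in SCC-9. In GBP1 every HGF library lay below every control of its line, and the FaDu controls stood above those of the other lines. GBP5 was called at -0.57 with 4 of 9 pairs higher, and GBP3 and GBP6 were at -0.12 and -0.37 without a call. The GBP genes lie side by side on chromosome 1, and the extent of GBP2 overlaps another gene on its strand.

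TRIM22, an interferon-induced antiviral ubiquitin ligase, fell, at -1.12 ± 0.14, and so did UBA7, the activating enzyme of the ubiquitin-like ISG15, at -1.26 ± 0.17. TRIM22 had 519.8, 475 and 287 normalized counts in the Detroit 562 controls and 127, 197 and 78.1 with HGF, 484, 485 and 468 against 215, 304 and 234 in FaDu, and 112, 213 and 249 against 79.5, 142 and 128 in SCC-9. For TRIM22 HGF libraries lay below all controls in Detroit 562 and FaDu and overlapped them in SCC-9. SAMD9L, MX1, IFI35, IRF1 and PARP14 were shared genes at -0.70 ± 0.10, -0.58 ± 0.12, -0.51 ± 0.07, -0.51 ± 0.10 and -0.41 ± 0.06. ISG15, IFIT1, IFIT2 and IFIT3, which are commonly used as interferon markers, did not pass the call, at -0.11, -0.15, -0.01 and -0.17. The immunoproteasome subunit PSMB9, the peptide-loading chaperone TAPBP and HLA-F were shared genes at -0.71 ± 0.09, -0.42 ± 0.05 and -0.40 ± 0.07, whereas HLA-B and HLA-C were at -0.12 and -0.10 without a call.

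TNFSF10, which encodes the death ligand TRAIL and was chosen after its values were seen, fell in the 3 lines. TNFSF10 had 2044, 1790.3 and 1142 normalized counts in the Detroit 562 controls and 648, 683 and 418 with HGF, 1176, 1392 and 919 against 672, 1046 and 541 in FaDu, and 389, 629 and 1043 against 232, 429 and 544 in SCC-9. In TNFSF10 HGF libraries lay below all controls in Detroit 562 and overlapped them in FaDu and SCC-9, and its shared change was -0.97 ± 0.12 with an adjusted p of 0.000225. TTCNNTTTC, the core of the interferon-stimulated response element (ISRE), was present for 12.3% of the falling genes, 8.87% of the rising genes and 8.96% of all, read on both strands. Promoters of GBP1 (chr1:89065199-89065458, minus strand), GBP4 (chr1:89198933-89199192, minus strand) and TNFSF10 (chr3:172523421-172523680, minus strand) are given because they hold such a match and fell in 9 of 9 pairs.
GBP1: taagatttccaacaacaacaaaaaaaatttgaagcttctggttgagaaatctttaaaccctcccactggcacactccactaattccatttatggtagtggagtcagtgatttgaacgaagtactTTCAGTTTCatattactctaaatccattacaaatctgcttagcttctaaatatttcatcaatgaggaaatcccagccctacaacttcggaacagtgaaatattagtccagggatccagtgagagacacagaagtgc
GBP4: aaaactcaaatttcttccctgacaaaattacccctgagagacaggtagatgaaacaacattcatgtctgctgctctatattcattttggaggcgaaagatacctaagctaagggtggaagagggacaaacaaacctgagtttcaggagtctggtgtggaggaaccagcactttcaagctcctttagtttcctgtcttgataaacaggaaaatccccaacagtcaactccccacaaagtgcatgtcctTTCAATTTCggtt
TNFSF10: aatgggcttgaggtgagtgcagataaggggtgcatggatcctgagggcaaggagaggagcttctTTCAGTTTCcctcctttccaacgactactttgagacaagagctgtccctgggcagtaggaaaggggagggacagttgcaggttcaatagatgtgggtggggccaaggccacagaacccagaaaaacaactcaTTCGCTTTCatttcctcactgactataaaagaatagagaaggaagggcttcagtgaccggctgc
In GBP1 the match in capitals lies 126 to 118 bases before the start, in GBP4 it spans the start, and TNFSF10 holds a pair, 186 to 178 and 54 to 46 bases before it. CD274, which rose, also holds this motif in its promoter.

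Of 28 NF-kB targets tested 3 were called up and 5 down. None was higher and 5 were lower in all pairs (17.9%, beside 8.42% of all genes), 4 of them called. TNFAIP2, a TNF-induced gene of membrane tubes and cell motility (ENSG00000185215.8, chr14:103123442-103137439, plus strand), had the most even fall of all 9-pair genes that the naming rule covers. TNFAIP2 had 8876, 8247 and 5846 normalized counts in the Detroit 562 controls and 5588, 5101 and 3268 with HGF, 23022, 25342 and 15606 against 14461, 18771 and 8734 in FaDu, and 1935, 2203 and 2485 against 1287, 1406 and 1317 in SCC-9. In TNFAIP2 HGF libraries lay below all controls in Detroit 562 and SCC-9 and overlapped them in FaDu, and the shared change was -0.70 ± 0.04 with an adjusted p of 1.36e-05. Its changes were -0.73 (Detroit 562), -0.65 (FaDu) and -0.72 (SCC-9), an evenness that is the reason it was picked. The complement genes CFB and C3 fell, at -0.67 ± 0.06 and -0.43 ± 0.06, and XXbac-BPG116M5.17, whose extent overlaps that of CFB on the same strand, had almost the same values at -0.67 ± 0.06. IL1A, TNFAIP3 and CSF3 were called up, at 0.50, 0.62 and 0.74, none in all pairs. Other even falls were the organic anion transporter SLCO3A1 at -0.46 ± 0.04, the guanine nucleotide exchange factor PLEKHG6 at -0.66 ± 0.07 and the epidermal homeobox factor DLX3 at -0.60 ± 0.07. XXbac-BPG116M5.17 was also picked as even, although its effect differed among lines (adjusted p = 0.00727 in edgeR's quasi-likelihood test).

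Epithelial and squamous differentiation genes fell in part. Of 33 differentiation genes 11 were called down and 1 up, but 3 were lower in all pairs, a share of 9.09% that is near the 8.42% of all genes. The transglutaminase TGM1, which crosslinks the cornified envelope, fell, at -0.89 ± 0.20, with -1.84 (Detroit 562), -0.63 (FaDu) and -0.14 (SCC-9). S100A9, a subunit of calprotectin, was at -0.50 ± 0.06, and ECM1 rose by 0.45 ± 0.10 but was not called without the replicate block (edgeR adjusted p = 0.121). The basal keratin KRT5 and the simple-epithelial keratin KRT19 fell, at -0.57 ± 0.11 and -0.60 ± 0.10. KRT5 had 103290, 90123 and 59749.8 normalized counts in the Detroit 562 controls and 59412, 52592 and 23773 with HGF, 239465, 261450 and 157991 against 153608, 212007 and 90605 in FaDu, and 61742, 72551 and 72169 against 55126, 65406 and 64035 in SCC-9. In KRT5 HGF libraries lay below all controls in Detroit 562 and overlapped them in FaDu and SCC-9. KRT8, KRT14, KRT17 and KRT18 did not pass the call.

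The epithelial regulators ELF3, GRHL3 and ZNF750 and the keratin KRT15 were chosen after their values were seen, at -0.98 ± 0.13, -1.05 ± 0.18, -0.87 ± 0.20 and -1.08 ± 0.25. ELF3 had 9104, 8377 and 6339 normalized counts in the Detroit 562 controls and 3446, 3872 and 1660.3 with HGF, 14397, 14923 and 9484 against 8619, 11442 and 5430.1 in FaDu, and 490.1, 698 and 1057 against 239.6, 451 and 625 in SCC-9. For ELF3 HGF libraries lay below all controls in Detroit 562 and overlapped them in FaDu and SCC-9. SERPINB13, a protease inhibitor of stratified epithelium, fell, at -1.14 ± 0.28, with -2.47 (Detroit 562), -0.47 (FaDu) and -0.52 (SCC-9). Of 28 junction and mesenchymal transition genes 3 were called down and 1 up, shares near the 7.03% and 2.3% of all genes. In all pairs 7 were lower (25%, beside 8.42% of all genes). The junction genes CLDN1, CLDN4 and PKP1 fell, at -0.72 ± 0.09, -0.44 ± 0.08 and -0.44 ± 0.08. CDH1, VIM, SNAI2 and ZEB1 did not pass the call, at -0.25, 0.27, 0.23 and 0.10. COL1A1 fell, at -0.54 ± 0.07, and summed fibroblast markers ranged from 6.1 to 152 CPM in controls and 5.35 to 129 with HGF. Of the leukocyte markers CD68 rose by 0.42 ± 0.09. Each library came from a culture of 1 cell line, and the source of the COL1A1 and CD68 reads was not tested.

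WNT4 and WNT10A, secreted WNT ligands of which the second was chosen after its values were seen, fell, at -1.30 ± 0.17 and -0.97 ± 0.11. WNT4 had 178, 135 and 75.6 normalized counts in the Detroit 562 controls and 40.7, 28.5 and 36.6 with HGF, 702, 347 and 213 against 304, 229 and 79.5 in FaDu, and 27.8, 40 and 80.7 against 12.5, 29.4 and 23.6 in SCC-9. In WNT4 HGF libraries lay below all controls in Detroit 562 and overlapped them in FaDu and SCC-9, and the lines did not differ by the test (adjusted p = 0.171). The receptor NOTCH3 fell, at -0.84 ± 0.18, with -1.66 (Detroit 562), -0.68 (FaDu) and -0.20 (SCC-9). TGFB1 rose by 0.42 ± 0.10, with 0.76 (Detroit 562), 0.48 (FaDu) and 0.04 (SCC-9). Of 32 Notch, WNT and TGF-beta genes 7 were called down and 1 up, and 9 were lower in all pairs.

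Among 27 receptor tyrosine kinases 6 were called down and 1 up. FGFR3 and FGFR2, fibroblast growth factor receptors of epithelium, fell, at -0.86 ± 0.09 and -0.58 ± 0.08, and the collagen receptor DDR1 was at -0.41 ± 0.08. FGFR3 had 9486, 8548 and 4673 normalized counts in the Detroit 562 controls and 4524, 4046 and 1753 with HGF, 4808, 4255 and 2652 against 2509, 2808 and 1411 in FaDu, and 391, 547 and 588 against 272, 436 and 399 in SCC-9. In FGFR3 HGF libraries lay below all controls in Detroit 562 and overlapped them in FaDu and SCC-9. FGFR1 was called up at 0.85 with 2 of 9 pairs lower, so it is not a shared gene. EGFR, ERBB2 and ERBB3 were not called, at 0.08, -0.31 and -0.33, although the last 2 were lower in all pairs.

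Many xenobiotic and redox enzymes fell. Of 35 genes of the NRF2 and xenobiotic list 17 were called down, 0 up, and 13 were lower in all pairs (37.1%), with a median of -0.36. UGT1A1, UGT1A3 and UGT1A6, which conjugate bilirubin and drugs with glucuronic acid, had -1.09 ± 0.11, -1.09 ± 0.11 and -1.06 ± 0.11. These genes share their last exons and overlap on 1 strand, so the same reads were counted for each and their values stand for the locus. UGT1A1 had 10754, 9566 and 4727 normalized counts in the Detroit 562 controls and 3773, 3936 and 1399 with HGF, 5361, 4264 and 2151 against 2760, 3125 and 1125 in FaDu, and 165, 212 and 241 against 90.1, 117 and 132 in SCC-9. In UGT1A1 HGF libraries lay below all controls in Detroit 562 and SCC-9 and overlapped them in FaDu. The aldo-keto reductases AKR1C1 and AKR1C2 fell, at -0.98 ± 0.15 and -1.01 ± 0.16, but their near-identical sequences leave the split between them uncertain. AKR1C1 changed by -1.48 (Detroit 562), -0.75 (FaDu) and -0.23 (SCC-9). AKR1C2 changed by -1.54, -0.70 and -0.31 in the same order, and neither was called in SCC-9. CYP1B1, a cytochrome that oxidizes hormones and polycyclic compounds, fell, at -0.78 ± 0.07 without a difference among lines by the test (adjusted p = 0.148). The heme oxygenase HMOX1, the glutathione synthesis enzyme GCLC and GSTM4 were at -0.67 ± 0.13, -0.58 ± 0.11 and -0.44 ± 0.07. The alcohol dehydrogenase ADH7 was called down, at -3.85 ± 0.45, but was tied in 4 pairs, and it averaged 23.9 normalized counts in Detroit 562 but 0.476 in FaDu and 0.317 in SCC-9. ADH1B and ADH1C, whose extents overlap on 1 strand, were called down at -2.62 and -2.61 with 2 of 9 pairs higher, both in SCC-9, where ADH1C averaged 1.29 normalized counts.

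Most sterol and fatty acid synthesis genes were lower by small amounts. Of 29 genes 5 were called down, 0 up, but 20 were lower in 9 of 9 pairs (69.0%, beside 8.42% of all genes), with a list median of -0.27 and 22 at an adjusted p below 0.1. ELOVL6, a fatty acid elongase, was higher in all pairs. By line the median was -0.40 (Detroit 562), -0.21 (FaDu) and -0.07 (SCC-9). INSIG1, a sterol sensor of the endoplasmic reticulum, fell, at -0.65 ± 0.11, and so did HMGCS1 of the mevalonate pathway at -0.45 ± 0.08, the sterol carrier STARD4 at -0.50 ± 0.08, the mevalonate kinase MVK at -0.40 ± 0.06 and the transcription factor SREBF1 at -0.42 ± 0.12. INSIG1 had 1486, 1255 and 1107 normalized counts in the Detroit 562 controls and 731, 595 and 528 with HGF, 2279, 2491 and 945 against 1142, 1781 and 565 in FaDu, and 805, 765 and 908 against 741, 695 and 773 in SCC-9. In INSIG1 HGF libraries lay below all controls in Detroit 562 and overlapped them in FaDu and SCC-9. SREBF1 changed by -1.03 (Detroit 562), -0.19 (FaDu) and -0.06 (SCC-9). FASN and ACLY were at -0.01 and 0.07 without a call.

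Ribosome biogenesis genes moved up together by small amounts. Of 40 genes none was called, since none reached the fold minimum, while 28 were higher in 9 of 9 pairs (70%, beside 7.7% of all genes) and 38 had an adjusted p below 0.1 upwards (beside 20.2%). The list median was 0.23, and by line it was 0.43 (Detroit 562), 0.19 (FaDu) and 0.09 (SCC-9). The nucleolar proteins LYAR, RRP9, BOP1, DDX21 and NCL were at 0.39 ± 0.08, 0.37 ± 0.10, 0.34 ± 0.09, 0.33 ± 0.06 and 0.20 ± 0.05. The count was 30 with DESeq2's size factors and 28 with total counts alone, and the list median was 0.22 with upper-quartile factors. Of 31 proliferation and mitosis genes 0 were called either way, 1 was higher and 5 were lower in all pairs, with a median of -0.06.

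Carbon metabolism gave few shared genes. Of 24 genes of glycolysis and lactate export 1 was called up, SLC2A3 at 0.55 with 8 of 9 pairs higher. In all pairs 3 were higher and 1 was lower, and 0 of the list were shared genes. At an adjusted p below 0.1, without the fold minimum, 10 were higher (beside 20.2% of all genes) and 3 lower (beside 22.6%). The list median was 0.08. HK2, the hexokinase of many tumors, was higher in 9 of 9 pairs at 0.39 ± 0.07, just below the fold minimum, with 0.65 (Detroit 562), 0.40 (FaDu) and 0.13 (SCC-9). In amino acid supply 3 of 30 were called down, a share near the 7.03% of all genes, and 7 were lower in all pairs. SLC6A9, the glycine transporter, fell, at -0.71 ± 0.10, and so did PHGDH, which opens the serine pathway, at -0.46 ± 0.06, and the mitochondrial folate enzyme ALDH1L2 at -0.51 ± 0.09. SLC6A9 had 1053, 1001 and 953 normalized counts in the Detroit 562 controls and 507, 486 and 383 with HGF, 381, 486 and 388 against 261, 381 and 218 in FaDu, and 1188, 1294 and 1190.5 against 846, 1007 and 851 in SCC-9. In SLC6A9 HGF libraries lay below all controls in Detroit 562 and SCC-9 and overlapped them in FaDu. PRODH, the proline dehydrogenase of mitochondria, had the largest fall of all genes the naming rule covers. PRODH had 916, 766 and 363 normalized counts in the Detroit 562 controls and 137, 107 and 52.5 with HGF, 78.1, 71.5 and 32 against 27.9, 40.3 and 24.2 in FaDu, and 46, 75.3 and 72.6 against 17.2, 49.2 and 59.1 in SCC-9. In PRODH HGF libraries lay below all controls in Detroit 562 and overlapped them in FaDu and SCC-9, with a shared change of -1.73 ± 0.30 and -2.79 (Detroit 562), -0.96 (FaDu) and -0.65 (SCC-9).

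The rest of the largest falls were CLIC3, a chloride intracellular channel protein, at -1.51 ± 0.20, the secreted matrix protein CCDC80 at -1.09 ± 0.19 and C2orf54 at -1.10 ± 0.18. CLIC3 had 129, 84.9 and 48.6 normalized counts in the Detroit 562 controls and 20.8, 22.8 and 9.76 with HGF, 46.6, 57.4 and 23.5 against 7.44, 25.2 and 9.7 in FaDu, and 103, 146 and 225 against 59.4, 87.1 and 78.8 in SCC-9. In CLIC3 HGF libraries lay below all controls in Detroit 562 and SCC-9 and overlapped them in FaDu. FBXO32, a ubiquitin ligase subunit of muscle atrophy that was chosen after its values were seen, fell, at -1.08 ± 0.14, with -1.12 (Detroit 562), -0.75 (FaDu) and -1.27 (SCC-9), the largest change being in SCC-9. The CDK inhibitor CDKN2C and the BH3-only protein BBC3 fell, at -0.51 ± 0.08 and -0.49 ± 0.10. Of 19 CDK inhibitors, D cyclins and p53 targets 5 were called down and 0 up, with 4 lower and 2 higher in all pairs.

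**Figure D5:**
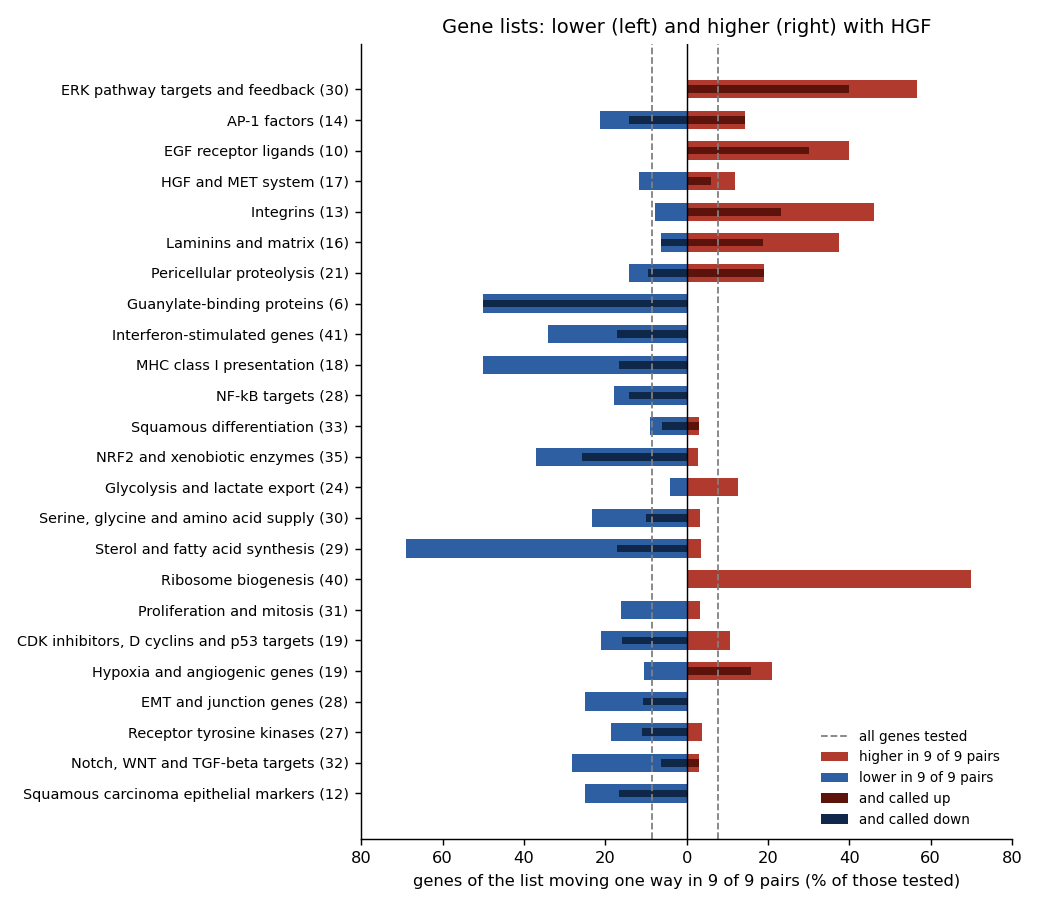
Percent of the tested genes of each list (number in parentheses) that were lower (blue, left) or higher (red, right) with HGF in 9 of 9 pairs, with the part that was also called in darker color, and the shares over all genes tested as dashed lines (8.42% and 7.7%). Ribosome biogenesis reaches 70% upwards without a call, and sterol and fatty acid synthesis reaches 69.0% downwards.

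The genes at the fold minimum were close in value on both sides. FERMT1, P4HTM and CYBRD1 lay just inside at 0.40 ± 0.12, -0.40 ± 0.08 and -0.40 ± 0.08, and SOCS2, SREBF2 and MCCC1 just outside at 0.40 ± 0.11, -0.40 ± 0.08 and -0.40 ± 0.10. Of the shared genes 152 rising and 334 falling ones had at least 20 normalized counts in every line, and 26 and 84 had fewer in some line. A change of at least 2-fold was reached by 19 and 47. The extent of 19 rising and 57 falling genes overlapped another gene on the same strand, so that reads there counted for both, and among genes named above these include ETV5, TRIM22, CFB, C3, TIMP2, GSTM4 and P4HTM.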

How the data were processed

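RNA of 18 libraries was sequenced. Per the labels and the methods, the authors demultiplexed with bcl2fastq 2.20.0.422, trimmed with cutadapt 1.16 (the methods also name a later version), aligned with STAR 2.5.2b to GRCh38 and counted with bedtools every read overlapping a gene's extent on its strand. The deposited values are raw counts, and a read in overlapping genes is counted for each. Here the 19901 genes were reduced to 15475 by filterByExpr and fitted with edgeR 4.0.16 (R 4.3.3, TMM factors, quasi-likelihood test, Benjamini-Hochberg adjustment) on 1 HGF effect and a block of 9 levels, line by replicate number, leaving 8 residual degrees of freedom. The study compared HGF with control within each line, from a table of all lines, so the test of a shared effect is not the authors'. Its fold minimum was applied to fold changes shrunk by DESeq2, whereas edgeR's changes were taken here without that step. A second model held 1 HGF effect per line. Pair changes used TMM-normalized counts.

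The replicate numbers were taken as pairs because same-numbered libraries deviated together from their group means in every pair (r = 0.32, 0.22 and 0.52 in Detroit 562, 0.44, 0.50 and 0.61 in FaDu, 0.45, 0.29 and 0.36 in SCC-9). The experiment was repeated. For the shared effect, p-values and standard errors measure the spread of the HGF change over all pairs, both between these repeats and between the lines. In the model with an HGF effect per line they measure the spread between repeats within the lines.

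Genes named were, among shared genes with a mean of at least 20 normalized counts in every line, the 12 largest changes and the 5 most even ones in each direction (smallest SD over mean of the 9 pair changes) and members of gene lists, then the 3 genes on each side of the fold minimum and MET, DUSP6, IER3, ITGB5, SLC6A9, GBP1, JDP2 and TNFAIP2. Members of lists that do not meet this rule are named with their values as the text says, chosen after the values were seen. Genes and lists were chosen with earlier results of these data known. Alternatives were other scaling factors, filters, thresholds, DESeq2 1.42.0, limma 3.58.1 voom, no block, and leaving out each pair and each line. Code was tested on simulated data. Promoters came from RefSeq, GRCh38.p14, and gene positions from the deposited table (GRCh38).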

Additional observations from a re-analysis of the deposited data

Results flagged for a closer look

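The HGF effect differed among the 3 lines, by edgeR's quasi-likelihood test of equal effects at an adjusted p below 0.1, in 131 shared genes that rose and 262 that fell. Among the largest rises the adjusted p was 0.00117 for IL18R1, 0.00756 for SPRY4, 0.0032 for ANTXR2, 0.00186 for PHLDA1, 0.0022 for SH2D5, 0.00219 for IL1R2, 0.000326 for SEMA7A, 0.000274 for DUSP6, 0.00283 for FOSL1 and 3.4e-05 for NT5E. Each of these changed least in SCC-9.

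Among the largest falls it was 0.000117 for PRODH, 0.0488 for CLIC3, 0.00142 for GBP2, 0.0257 for UBA7, 8.31e-05 for SERPINB13, 0.000158 for GBP4, 0.0106 for TRIM22, 0.000497 for C2orf54, 0.00316 for UGT1A1, 0.000522 for CCDC80 and 0.00314 for UGT1A3. Each of these changed most in Detroit 562. For the other genes the adjusted p was 0.0696 for SLC4A7, 0.00727 for XXbac-BPG116M5.17, 0.0386 for GBP1, 0.00196 for SLC6A9, 0.000605 for IER3, 0.0444 for MET and 0.000143 for ITGB5. MET and ITGB5 were lower with HGF in all 3 SCC-9 pairs and higher in all pairs of the other lines.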

How the results depend on the processing

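Counts of calls stayed within 1.5 times of 356 up and 1088 down with other scaling factors, without the filter on low counts, with DESeq2 (324 and 931) and with limma voom (340 and 1073). They were 230 and 633 with at least 50 counts in 9 libraries, 3120 and 3501 without the fold minimum, and 29 and 178 at an adjusted p below 0.05 and a log2 change of at least 1. Leaving out the line Detroit 562 gave 183 and 439, and leaving out SCC-9 gave 549 up. Leaving out 1 pair gave 285 to 416 up and 869 to 1175 down. With a change of at least 0.1 in each pair 174 genes were higher and 399 lower in all pairs. Without the replicate block 299 and 932 genes were called, and 76 genes differed among lines in place of 3987, a count that ran from 2531 to 4034 with a pair left out, the lowest without SCC-9 replicate 2. Without the block the shares carried to the line left out were 100% up (2 genes) and 100% down (7 genes) in Detroit 562 and 71.5% and 62.9% in SCC-9. Without the fold minimum they were 83.5% down in Detroit 562, 57.1% up and 59.5% down in FaDu and 58.3% up in SCC-9. Of the 124 genes followed, none was counted as changing direction in these alternatives. A changed sign of a gene uncalled in both fits was not counted. Most of the 124 were chosen for moving 1 way in all 9 pairs, so leaving out a pair or line could hardly reverse them. Without the block MMP7, ECM1 and HLA-F lost the call (HLA-F at -0.39), SOCS2 and MCCC1 gained it, and the others kept theirs. Of the 124, 42 lost the call without Detroit 562, 9 without FaDu and 2 without SCC-9, and 16, 13 and 11 lost it without a Detroit 562 pair. The causes of these shifts were not tested. Genes under 20 normalized counts in a line, 26 of the rising and 84 of the falling shared genes, are those where depth limits the pair directions most.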
